A study of Homo sapiens with 8 samples.

Results

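CHEK1 overexpression was compared with its own control in ARP1 and H929, a pair of established human multiple myeloma cell lines. The comparison holds 4 of the 8 libraries of the series, chosen by the genotype and cell line in their labels: ARP1 with CHEK1 overexpression, ARP1 with the control of overexpression, H929 with CHEK1 overexpression and H929 with the control of overexpression, at 1 library each. The other 4 libraries, labelled CHEK1 knockdown and the control of knockdown in both lines, entered the estimate of the spread and are quoted where a value of the comparison turns on them. Not given in the labels are the means by which CHEK1 was raised, whether a line was a pool or a clone, or what the controls carried. With 1 library per line and genotype, the 2 lines served as the replicates (n = 2), and all tests reach no further than these lines.

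CHEK1 encodes CHK1, a serine/threonine kinase that ATR activates at stalled or damaged replication forks. CHK1 holds back the CDC25 phosphatases, and so the cyclin-dependent kinases, until replication is complete, and it also supports homologous recombination. Multiple myeloma is a cancer of plasma cells, the antibody-secreting end stage of the B cell lineage, in which NF-kB signalling, interferon tone and the loss of the B cell programme, MHC class II included, are much-studied features.

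Levels are FPKM, which corrects fragments for transcript length and library total, summed per gene over transcripts of at least 300 nt. The 4 libraries held 10892 to 11290 protein-coding genes at 1 FPKM or more, and genes of the mitochondrial genome took 3.53% to 4.74% of the summed FPKM. Plasma cell markers were present in all of them, though 5 of 6 had a negative log2 fold change with overexpression and 4 were lower in both lines, with a median of -0.24. Over all coding genes tested 50.5% were negative and 30.4% lower in both lines. Against the controls of knockdown the medians of these markers were -0.145 in ARP1 and 0.091 in H929, so their side of 0 in H929 rests on the control. IRF4 stood at 431 and 330 FPKM in ARP1 and at 455 and 370 FPKM in H929, control before overexpression, XBP1 at 849 and 658 FPKM and at 483 and 425 FPKM. The controls of knockdown held IRF4 at 331 FPKM in ARP1 and 202 FPKM in H929, so its lower values with overexpression rest on the control. SDC1, or CD138, stood at 216 and 150 FPKM and at 180.2 and 156 FPKM, with a log2 fold change of -0.37 ± 0.13. The H929 libraries held SLAMF7 at 0.201 FPKM or less. Of the markers of T and NK cells, CD3D, CD3G and NKG7 were listed at 0 in all 4 libraries, as were the myeloid genes LYZ, S100A8, S100A9 and ITGAM and the stromal and epithelial genes COL1A2 and EPCAM. GNLY was the only T and NK marker of 9 to be tested, at 3.25 FPKM in the H929 control and 14.2 FPKM in H929 with overexpression. VIM, which both lines express, made up nearly all of the stromal list's sum of 894 to 1392 FPKM. Other members of that list were not absent: KRT18 stood at 1.174 to 10.48 FPKM, and KRT8 and PDGFRB reached 4.276 and 2.892 FPKM. FCER1G, on the myeloid list, reached 1.299 FPKM.

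CHEK1 itself (chr11:125625136-125676255, plus strand, GRCh38) stood at 78.2 FPKM in ARP1 control cells and 114 FPKM with overexpression, and at 81.6 and 107 FPKM in H929. Both overexpression libraries therefore lay above both own controls, and above the controls of knockdown at 61.0 and 80.7 FPKM. The log2 fold change, on the scale of log2(FPKM + 1), was 0.47 ± 0.20 (SE), with an adjusted p of 0.991 and an unadjusted one of 0.0495 in limma's two-sided test over all 8 libraries. The difference kept its sign when any 1 of the 4 libraries was left out, with values from 0.23 to 0.71. Among CHEK1 transcripts, the short CHEK1-208 had the highest level in ARP1, and stood at 23.5 and 38.5 FPKM in ARP1 and 16.4 and 25.1 FPKM in H929, control before overexpression. CHEK1-218 stood at 18.4 and 27.0 FPKM in ARP1 and at 17.5 and 23.0 FPKM in H929. CHEK1-203, the highest form in H929, was also higher with overexpression in both lines, at 13.2 and 17.3 FPKM in ARP1 and 21.3 and 25.4 FPKM in H929. CHEK1-204, a long form, was lower in both, at 6.54 and 3.50 FPKM in ARP1 and 7.56 and 5.17 FPKM in H929. CHEK1-215, also short, was higher with overexpression in both lines, and the short CHEK1-209 in ARP1 only. The ARP1 control of knockdown held less CHEK1-208 and more CHEK1-209 than either ARP1 library of the comparison. Transcript levels are estimates that split shared reads between forms. The gene's level is the sum of these length-corrected values, in which a read given to a short form counts for more. The sum therefore also depends on the division, and how much of its gain comes from that was not tested. CHEK1 overlaps 3 other annotated genes, and the counting was not stated to use strand.

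No gene passed an adjusted p of 0.05 by limma: 0 of 14702 genes of every biotype and 0 of 11871 protein-coding genes (0%), with a smallest adjusted p of 0.449. At an unadjusted p under 0.05 there were 486 coding genes (4.09%), 215 higher (1.81%) and 271 lower (2.28%). Differences are therefore described by their size and by whether the lines shared them. Sharing was read at 1.5-fold or more in both lines, on FPKM plus 1, among the 10353 coding genes with a mean of at least 2 FPKM over the 4 libraries. By that measure 47 genes were higher in both lines (0.454%) and 46 were lower in both (0.444%), while 8 were higher in ARP1 and lower in H929 and 9 the reverse. ARP1 alone gave 275 higher and 397 lower genes at that fold, and H929 alone gave 142 and 218. At 2-fold, 10 genes were higher in both lines, 5 were lower in both, and 2 went in opposite directions. Shared genes had low levels, with a median of 8.08 FPKM for the higher and 6.64 FPKM for the lower against 18.5 FPKM over all 10353. The higher genes lay on 16 chromosomes and the lower ones on 19. Another annotated gene overlapped 35 of the 47 and 30 of the 46, so part of their reads could belong to a neighbour where strand was not used. KLF2 and AHNAK lay just outside the 1.5-fold line on the higher side, with smaller log2 ratios of 0.58 in both cases, and EPS8 and COBLL1 just inside at 0.60. On the lower side CCR9 and FAM53A lay just outside and DHRS1 and THTPA just inside.

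**Figure D1:**
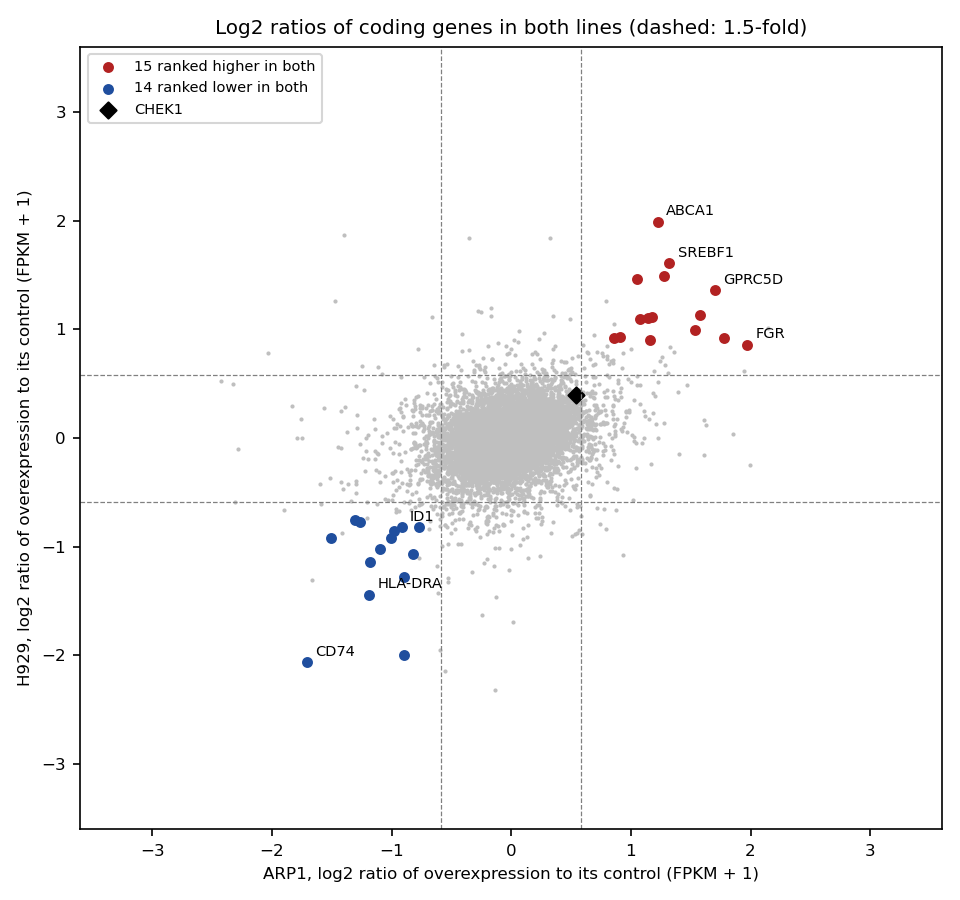
Log2 ratio of FPKM plus 1, overexpression to its control, in ARP1 (horizontal axis) and H929 (vertical axis), for the 10353 coding genes with a mean of at least 2 FPKM, 1 point per gene, with dashed lines at 1.5-fold. Coloured points are 15 higher and 14 lower genes ranked first by the smaller of both lines' ratios, so their place in the corners follows from the ranking; CHEK1, the black diamond, lies at 0.54 and 0.39, inside the 1.5-fold lines.

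The lowest adjusted p-values of the comparison belonged to a pair of MHC class II genes, CD74 and HLA-DRA, both lower in both lines. CD74 (chr5:150401637-150412929, minus strand), whose product chaperones class II molecules to the endosome as the invariant chain, measured 49.5 FPKM in ARP1 control cells and 14.4 FPKM with overexpression, and 11.4 and 1.97 FPKM in H929. HLA-DRA (chr6:32439842-32445046, plus strand), for the HLA-DR alpha chain, stood at 159 and 69.6 FPKM in ARP1 and at 6.22 and 1.66 FPKM in H929. For both genes each overexpression library lay below both controls of its line: the controls of knockdown held CD74 at 46.4 and 12.7 FPKM and HLA-DRA at 188 and 6.30 FPKM. For HLA-DRA the lines themselves differed by more than the genotypes did, ARP1 being the line with more class II RNA. CD74 had a log2 fold change of -1.89 ± 0.22 (SE) and HLA-DRA one of -1.31 ± 0.16, both at an adjusted p of 0.449 by limma, short of the threshold. Neither overlaps another annotated gene. The most abundant transcript of each was lower in both lines: CD74-202 went from 32.0 to 11.9 FPKM in ARP1 and from 7.10 to 0.848 FPKM in H929, and HLA-DRA-202 from 152 to 64.7 FPKM and from 6.22 to 1.47 FPKM. In ARP1, CD74-212 and CD74-201 went from 11.5 and 2.99 FPKM to under 1 FPKM, with lower log2 ratios, -3.64 and -2.00, than the -1.36 of CD74-202. The ARP1 control of knockdown held CD74-212 at 0.258 FPKM and CD74-201 at 9.43 FPKM, so the size of the CD74-212 ratio rests on the control used. In bulk RNA, fewer cells carrying a transcript and less of it per cell cannot be told apart.

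Class II transcription runs through CIITA, a co-activator that binds no DNA itself, on a promoter platform of X and Y boxes held by the RFX complex and NF-Y. The proximal promoters of a pair of these genes are shown because CD74 had the lowest log2 fold change of the list and HLA-DRB1 carries the platform in the spacing known for class II genes. They are reference letters from RefSeq (GRCh38.p14), the 250 bases before the annotated start at chr5:150412911-150413160 and chr6:32589849-32590098, both minus strand and printed 5′ to 3′ on the gene's strand, not sequences of these lines. Capitals mark the Y box core CCAAT on either strand and, in HLA-DRB1, the X box letters AGNAACN followed by GATG.
CD74: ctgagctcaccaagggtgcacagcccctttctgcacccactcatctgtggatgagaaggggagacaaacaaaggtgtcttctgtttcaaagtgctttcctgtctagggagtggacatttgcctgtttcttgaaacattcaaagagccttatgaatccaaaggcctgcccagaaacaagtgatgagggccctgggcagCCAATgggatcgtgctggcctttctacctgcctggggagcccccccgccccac
HLA-DRB1: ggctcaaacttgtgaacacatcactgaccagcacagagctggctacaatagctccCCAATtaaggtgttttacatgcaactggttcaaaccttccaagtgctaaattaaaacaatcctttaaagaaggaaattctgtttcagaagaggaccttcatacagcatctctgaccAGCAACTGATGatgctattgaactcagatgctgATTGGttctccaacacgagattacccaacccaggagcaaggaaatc
In CD74 the CCAAT core lay at -53 to -49 from the start. In HLA-DRB1 the X box letters lay at -79 to -69 and the nearer CCAAT core, on the opposite strand, at -46 to -42. Of the 15 tested genes of the class II list 12 had a promoter in the table. CCAAT was in 9 of these 12, against 32.0% of 35116 promoters of that length, and the X box letters were in 2 of 12, HLA-DMB and HLA-DRB1, against 0.242%. A listed gene counted if any of its promoters matched, while the percentages are of single promoters. The units thus differ, which favours the listed genes. X and Y boxes are known elements of class II promoters, so a higher share on this list follows from their choice and does not bear on overexpression. A match of letters is a description and not a measured binding site.

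Of the 15 tested genes on the class II list, 14 had a negative log2 fold change and 11 were lower in both lines, against 50.5% negative and 30.4% lower in both over all coding genes tested. The list's median was -0.41, with -0.48 in ARP1 and -0.18 in H929, beside -0.0022 over all coding genes. No member passed the adjusted threshold. HLA-DMA, which with HLA-DMB loads peptide onto class II molecules, stood at 18.9 and 10.6 FPKM in ARP1 and at 5.12 and 3.57 FPKM in H929, with a log2 fold change of -0.60 ± 0.18. CTSS, the protease that trims the invariant chain, stood at 4.93 and 3.47 FPKM and at 17.1 and 10.4 FPKM. The ARP1 control of knockdown held CTSS at 2.97 FPKM, below the overexpression library, so its ARP1 direction rests on the control. The remaining chains were read in ARP1 alone: HLA-DPA1 went from 41.3 to 18.7 FPKM there, HLA-DPB1 from 15.4 to 5.65 FPKM and HLA-DRB1 from 5.57 to 1.59 FPKM, while H929 held all 3 at 2.32 FPKM or less. HLA-DRB1 and its sister loci are near copies, so their reads may have been split between them. The upstream regulators CIITA and RFX5 differed less than HLA-DMA and CTSS in ARP1, but in H929 RFX5 differed about as much as HLA-DMA. CIITA stood at 25.3 and 20.8 FPKM in ARP1 and at 16.4 and 13.0 FPKM in H929. RFX5, a DNA-binding subunit of the RFX complex, stood at 64.3 and 55.8 FPKM and at 50.0 and 36.0 FPKM. HLA-DOB, between 0.88 and 1.25 FPKM, was the only tested member with a positive value. Class I presentation genes lay less far from 0, with 12 of 17 negative and a median of -0.16. HLA-F was the lowest of the named class I genes, at 26.9 and 18.3 FPKM in ARP1 and 13.7 and 8.86 FPKM in H929, followed by TAPBP, or tapasin, at 91.9 and 77.6 FPKM and at 90.9 and 68.3 FPKM. PSMB10, an immunoproteasome subunit, had a log2 fold change of -0.29 ± 0.18, and ERAP2, a peptide-trimming protease, one of -0.22 ± 0.20.

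SREBF1 and most of the listed SREBP1 and LXR lipid genes lay on the higher side. SREBF1, which encodes the SREBP1 transcription factors of fatty acid synthesis (chr17:17810399-17837002, minus strand), stood at 22.6 FPKM in ARP1 control cells and 58.1 FPKM with overexpression, and at 29.6 and 92.5 FPKM in H929. Its log2 fold change was 1.47 ± 0.20 (SE, limma, adjusted p = 0.647). The controls of knockdown lay between these at 38.6 and 61.9 FPKM, so against them the log2 ratio was 0.58 in ARP1 and 0.57 in H929. SREBF1 makes SREBP1 isoforms from alternative first exons. SREBF1-201, the form with the most upstream start, stood at 14.5 and 29.2 FPKM in ARP1 and at 15.8 and 43.5 FPKM in H929. SREBF1-205, whose start lies 17.051 kb further downstream, stood at 4.02 and 17.7 FPKM and at 7.08 and 27.0 FPKM. Both starts were thus higher in both lines, and the downstream form had the larger log2 ratio in each, 1.90 against 0.96 in ARP1 and 1.79 against 1.41 in H929. The H929 control of knockdown held both forms at nearly the same level, so against that control SREBF1-201 had the larger log2 ratio. In ARP1 the downstream form kept the larger ratio against the control of knockdown, but by less. The order of the forms in H929 thus rests on the control used. The difference between forms had no replicate within a line and was not tested.

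ABCA1, the cholesterol efflux pump (chr9:104781002-104928237, minus strand), stood at 1.40 and 4.62 FPKM in ARP1 and at 0.517 and 5.03 FPKM in H929, with a log2 fold change of 1.61 ± 0.41. The ARP1 control of knockdown already held 5.61 FPKM, above the ARP1 overexpression library, so for ARP1 the direction rests on the choice of control. ABCA1 and MYLIP are known targets of the liver X receptors, which sense oxysterols and also drive SREBF1. The promoter of ABCA1 is shown because it is the only one among the matched genes of the lipid list to hold the receptor's repeat. These are reference letters from RefSeq (GRCh38.p14, chr9:104928156-104928405, minus strand, 5′ to 3′), and capitals mark the match to AGGTNA and NGGTCA with NNNN between them, which lies on the opposite strand at -69 to -54.
ABCA1: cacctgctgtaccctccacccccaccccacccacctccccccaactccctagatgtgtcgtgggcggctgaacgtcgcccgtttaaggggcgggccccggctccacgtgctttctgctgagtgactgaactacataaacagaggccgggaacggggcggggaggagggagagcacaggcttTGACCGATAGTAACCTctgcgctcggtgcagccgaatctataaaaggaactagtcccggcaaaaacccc
The letters occurred in 1 of 14 matched genes of the list and in 0.0797% of all promoters of that length. Genes counted if any of their promoters matched, while the percentage is of single promoters, so the units differ. SREBF1 had no match in this window.

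On the list of SREBP1 and LXR lipid genes, 12 of 17 tested members had a positive log2 fold change and 11 were higher in both lines, against 49.5% and 30% over all coding genes, and the median was 0.21. Against the controls of knockdown the medians were 0.16 in ARP1 and -0.026 in H929, so the side of 0 in H929 rests on the choice of control. None passed the adjusted threshold, and 4 had an unadjusted p under 0.05 in limma, beside 4.09% of all coding genes. SCD, the desaturase that makes oleate, was the most abundant of those 4, at 59.3 and 114 FPKM in ARP1 and at 59.1 and 102 FPKM in H929. Both SCD values with overexpression lay above the controls of knockdown too, at 62.6 and 34.0 FPKM. MYLIP, a sterol-responsive ubiquitin ligase, stood at 10.4 and 15.1 FPKM and at 4.15 and 10.02 FPKM. FASN and ACACA, the enzymes of fatty acid synthesis, were higher by smaller amounts, with log2 ratios of 0.34 and 0.25 for FASN and 0.54 and 0.30 for ACACA in ARP1 and H929. The receptors themselves, NR1H3 and NR1H2, had log2 fold changes of -0.14 and -0.12. On the list of cholesterol synthesis and uptake 13 of 21 were positive, with a median of 0.050, but 6 were higher and 5 lower in both lines, and the median was 0.16 in ARP1 and -0.061 in H929. Among its higher members was INSIG1, which retains SREBP in the endoplasmic reticulum, at 32.0 and 60.4 FPKM in ARP1 and 45.8 and 65.6 FPKM in H929. PMVK, a kinase of the mevalonate pathway, was lower in both lines, with log2 ratios of -0.42 and -0.27.

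**Figure D2:**
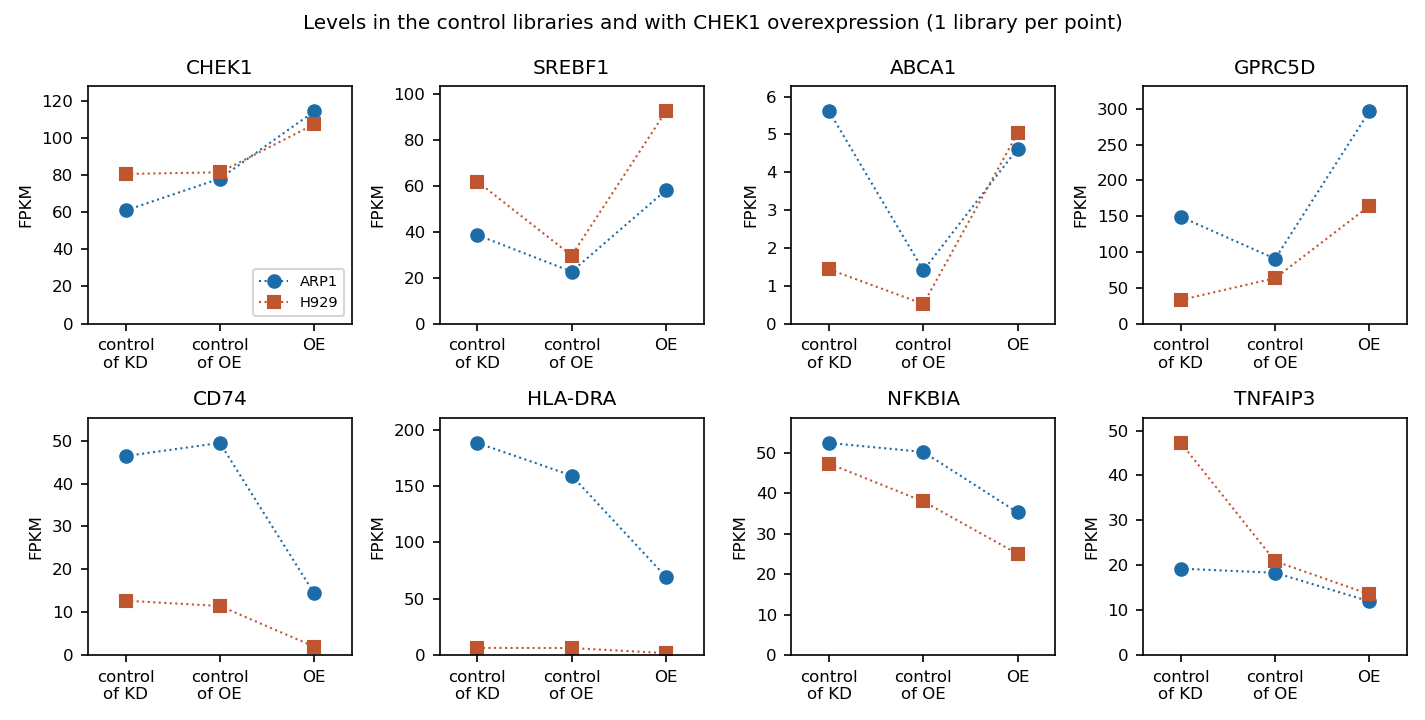
FPKM of 8 genes (vertical axes, linear from 0, 1 scale per gene) in the control of knockdown (KD), the control of overexpression (OE) and CHEK1 overexpression, 1 library per point, with ARP1 as circles and H929 as squares joined by dotted lines for each line. CD74, HLA-DRA and NFKBIA with overexpression lay below both controls of the same line, whereas for ABCA1 in ARP1 the control of knockdown, at 5.61 FPKM, lay above the overexpression library, at 4.62 FPKM.

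NF-kB genes lay on the lower side in both lines. NF-kB dimers drive their own inhibitors, so NFKBIA, which encodes IkB-alpha, and TNFAIP3, which encodes the ubiquitin-editing protein A20, are commonly read as gauges of its output. NFKBIA stood at 50.3 and 35.3 FPKM in ARP1 and at 38.02 and 25.1 FPKM in H929, and its controls of knockdown at 52.5 and 47.4 FPKM, so both overexpression libraries lay below all 4 controls. Its log2 fold change was -0.54 ± 0.15 (SE, limma, adjusted p = 0.991), and no left-out library moved it outside -0.61 to -0.47. TNFAIP3 stood at 18.3 and 11.97 FPKM in ARP1 and at 20.9 and 13.5 FPKM in H929, again below all 4 controls. RELB, a subunit of the non-canonical arm, had the lowest value of the list at -0.75 ± 0.27, from 30.01 to 20.5 FPKM in ARP1 and from 24.2 to 11.8 FPKM in H929. NFKB2, its partner in that arm, went from 59.8 to 44.9 FPKM and from 57.4 to 34.0 FPKM. NFKBIZ, a nuclear IkB protein, went from 7.50 to 5.11 FPKM and from 5.72 to 3.49 FPKM. The canonical subunits differed less: NFKB1 stood at 33.2 and 32.4 FPKM and at 32.2 and 31.5 FPKM, and RELA at 36.8 and 32.4 FPKM and at 62.1 and 60.0 FPKM. Of 18 tested genes on the list 16 were negative and 14 were lower in both lines, against 50.5% and 30.4% over all coding genes tested. The list's median was -0.37, with -0.27 in ARP1 and -0.36 in H929. Against the controls of knockdown the medians were -0.39 and -0.55. None passed the adjusted threshold, and 5 had an unadjusted p under 0.05 in limma, all lower. Over all coding genes 2.28% were lower at that p.

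The promoter of NFKBIA is shown because 11 of the 15 matched genes of the list hold the kB letters GGGA, NNNN and CC in a row on either strand, against 22.6% of all promoters of that length. Again the list counts genes with any matching promoter and the percentage counts single promoters. It is from RefSeq (GRCh38.p14, chr14:35404750-35404999, minus strand, 5′ to 3′), and capitals mark the match at -81 to -72.
NFKBIA: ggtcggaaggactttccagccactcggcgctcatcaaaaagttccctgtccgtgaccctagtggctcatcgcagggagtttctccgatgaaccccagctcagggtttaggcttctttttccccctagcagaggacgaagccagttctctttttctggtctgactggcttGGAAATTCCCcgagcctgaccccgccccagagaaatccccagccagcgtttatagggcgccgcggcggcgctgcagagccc
The same letters were in 16 of 37 matched genes among those higher in both lines and in 14 of 34 among those lower in both, so they did not separate the directions. Both shares of genes, 43.2% and 41.2%, also lay above the 22.6% of single promoters.

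Type I interferon response genes also lay on the lower side. Of 22 tested members 17 were negative and 13 lower in both lines, against 50.5% and 30.4% over all coding genes tested. The list's median was -0.29, at -0.31 in ARP1 and -0.38 in H929. IFI6, an interferon-induced mitochondrial protein, stood at 3.94 and 1.06 FPKM in ARP1 and at 10.6 and 5.80 FPKM in H929. ISG15, the interferon-induced ubiquitin-like modifier, stood at 31.8 and 23.5 FPKM and at 43.5 and 28.9 FPKM. IRF9, part of the complex that carries the interferon signal to DNA, had a log2 fold change of -0.70. IFI35 was lower by log2 ratios of -0.42 and -0.60, and IFIT3 by -0.76 and -0.64, the latter at levels under 4 FPKM. ISG20, an exonuclease, went from 72.9 to 24.9 FPKM in ARP1 and from 63.6 to 49.0 FPKM in H929, but the controls of knockdown held only 20.8 and 35.9 FPKM, so its direction reversed with the other control. OAS2, an RNA-sensing synthetase, was higher in both lines, at 17.1 and 22.8 FPKM and at 27.3 and 31.1 FPKM. No member passed the adjusted threshold.

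The checkpoint pathway that CHK1 belongs to lay slightly on the higher side. Of its 27 listed genes, CHEK1 included, 20 were positive and 18 higher in both lines, against 49.5% and 30% over all coding genes tested. The list's median was 0.13. Against the controls of knockdown it was 0.14 in ARP1 and 0.0075 in H929. ATRIP, the partner that brings ATR to RPA-coated DNA, stood at 8.32 and 11.2 FPKM in ARP1 and at 8.05 and 11.3 FPKM in H929. CDC25B, a phosphatase that CHK1 restrains, stood at 38.9 and 47.7 FPKM and at 64.0 and 83.6 FPKM, and CCNA2, or cyclin A, at 72.5 and 99.5 FPKM and at 123 and 144 FPKM. The named genes had log2 fold changes of 0.41 ± 0.18, 0.33 ± 0.14 and 0.34 ± 0.15. In H929 the control of knockdown held ATRIP at 12.3 FPKM and CCNA2 at 146 FPKM, above the overexpression library. Their direction in H929 thus followed the control used, whereas CDC25B, at 55.1 FPKM in that control, kept its direction. ATR itself did not differ by more than its error, at 0.033 ± 0.17, nor did CLSPN, the adaptor claspin, at 0.073 ± 0.20. CHEK2, the kinase of the parallel double-strand break arm, was the lowest member, at 25.9 and 22.2 FPKM and at 15.3 and 11.2 FPKM. Genes of mitosis and spindle assembly were positive in 32 of 34 cases and higher in both lines in 27, the exceptions in the fit being ANLN and BUB3, with a median of 0.19 that was 0.31 in ARP1 and 0.12 in H929. The largest value among them was that of ECT2, which sets the cleavage furrow, at 0.45 ± 0.14, from 24.9 to 37.3 FPKM in ARP1 and from 31.9 to 40.7 FPKM in H929. NCAPG and NCAPH, subunits of condensin, stood at 0.41 ± 0.17 and 0.30 ± 0.20, and BIRC5, or survivin, at 0.35 ± 0.14. Against the controls of knockdown the median of the mitotic list was 0.10 in ARP1 and -0.033 in H929, so its side of 0 in H929 followed the control used. Homologous recombination and Fanconi anaemia genes were positive in 18 of 24 cases, with a median of 0.087. BRIP1, a helicase that works with BRCA1, stood at 7.49 and 9.86 FPKM and at 6.81 and 11.05 FPKM, and FANCC, XRCC2 and BLM had log2 fold changes of 0.42, 0.34 and 0.30. DNA replication genes were positive in 21 of 34 cases with a median of 0.036, but 11 were higher and 10 lower in both lines. Their median was -0.012 in ARP1 and 0.053 in H929, so the list had no clear direction. None of these genes passed the adjusted threshold.

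Among single genes ranked by the smaller of both lines' log2 ratios, GPRC5D, an orphan receptor of plasma cells and a therapeutic target in myeloma (chr12:12940775-12952147, minus strand), came first on the higher side. It stood at 90.4 and 296 FPKM in ARP1 and at 63.3 and 164 FPKM in H929, with controls of knockdown at 149 and 33.0 FPKM. Both overexpression libraries lay above all 4 controls, yet the controls of a line differed from each other by a log2 ratio of -0.71 in ARP1 and 0.92 in H929, and the fold change of 1.53 ± 0.60 had an adjusted p of 0.991. All of its listed transcripts were higher in both lines. FGR, a Src-family kinase, stood at 0.932 and 6.59 FPKM in ARP1 and at 14.9 and 27.8 FPKM in H929, with 1.42 ± 0.27 and an adjusted p of 0.945. SMAD3, a signal transducer of TGF-beta, had a small error at 0.92 ± 0.14 (adjusted p = 0.703), from 7.79 to 15.5 FPKM and from 20.9 to 40.9 FPKM. Its controls of knockdown, at 16.6 and 42.1 FPKM, lay above both overexpression libraries, so its direction reversed against them. S100A4, a calcium-binding protein, did the same: it went from 117 to 214 FPKM and from 0.887 to 2.58 FPKM, while the controls of knockdown held 227 and 4.70 FPKM. SLC2A3, the glucose transporter GLUT3, stood at 3.73 and 9.67 FPKM and at 0.893 and 3.10 FPKM. The ARP1 control of knockdown held SLC2A3 at 10.4 FPKM, above the overexpression library, so its ARP1 direction also rests on the control. IL6R, the receptor chain for the myeloma growth factor interleukin 6, stood at 16.2 and 37.4 FPKM and at 3.79 and 7.98 FPKM. SCO2, a copper chaperone of cytochrome oxidase, is annotated as a pair of overlapping entries on the same strand. The entry that the ranking took (ENSG00000284194.1) stood at 3.32 and 8.10 FPKM and at 1.55 and 4.45 FPKM, while the other SCO2 entry (ENSG00000130489.14) was lower in both lines, at 16.6 and 12.2 FPKM and at 12.5 and 8.65 FPKM. Reads may have been split between the overlapping entries, so the direction of SCO2 is uncertain. IFITM2, an interferon-inducible membrane protein with near copies beside it, stood at 6.84 and 16.4 FPKM and at 13.2 and 29.7 FPKM. CD52, a surface glycoprotein of lymphocytes, went from 0.313 to 2.92 FPKM and from 12.4 to 28.4 FPKM, and CDA, cytidine deaminase, from 0.764 to 4.13 FPKM and from 1.89 to 4.77 FPKM. The other ranked genes were KIAA1671, ZBTB7C and DMKN, with log2 fold changes of 1.38, 1.35 and 1.25. All 3 stood at 10.97 FPKM or less in each of the 4 libraries.

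On the lower side, led by CD74, FRMD6, a FERM-domain protein upstream of the Hippo kinases, stood at 48.7 and 20.9 FPKM in ARP1 and at 40.8 and 18 FPKM in H929, with a log2 fold change of -1.16 ± 0.25. FRMD6 overlaps 6 annotated genes, which leaves its reads less certain. ID1, an inhibitor of basic helix-loop-helix factors, stood at 10.6 and 5.14 FPKM and at 8.02 and 4.11 FPKM, below the 13.6 and 13.8 FPKM of the controls of knockdown. BTG2, an antiproliferative target of p53, stood at 28.8 and 11.1 FPKM and at 6.46 and 3.42 FPKM. Of 18 tested p53 targets 4 were higher and 6 lower in both lines. The fitted median of that list, 0.057, and its medians of -0.095 in ARP1 and -0.031 in H929 differed in sign, so the list had no clear direction. ADAM8, a membrane metalloprotease, stood at 20.8 and 10.1 FPKM and at 28.3 and 15.2 FPKM, below both controls of each line, with -0.92 ± 0.18 and an adjusted p of 0.945. RPRM, or reprimo, stood at 12.3 and 3.68 FPKM in ARP1, and at 0.898 and 0 FPKM in H929. HIST1H2AL, a histone gene, was likewise listed at 0 in H929 with overexpression. CLDN7, a tight junction claudin, COL9A2, a collagen chain, and MSMP each stood under 5 FPKM in all 4 libraries, with log2 fold changes of -1.09, -1.06 and -0.79. GULP1, an adaptor of engulfment, went from 22.9 to 12.5 FPKM in ARP1 and from 2.58 to 0.71 FPKM in H929. TEX19 went from 1.62 to 0.407 FPKM and from 8.11 to 1.29 FPKM.

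**Figure D3:**
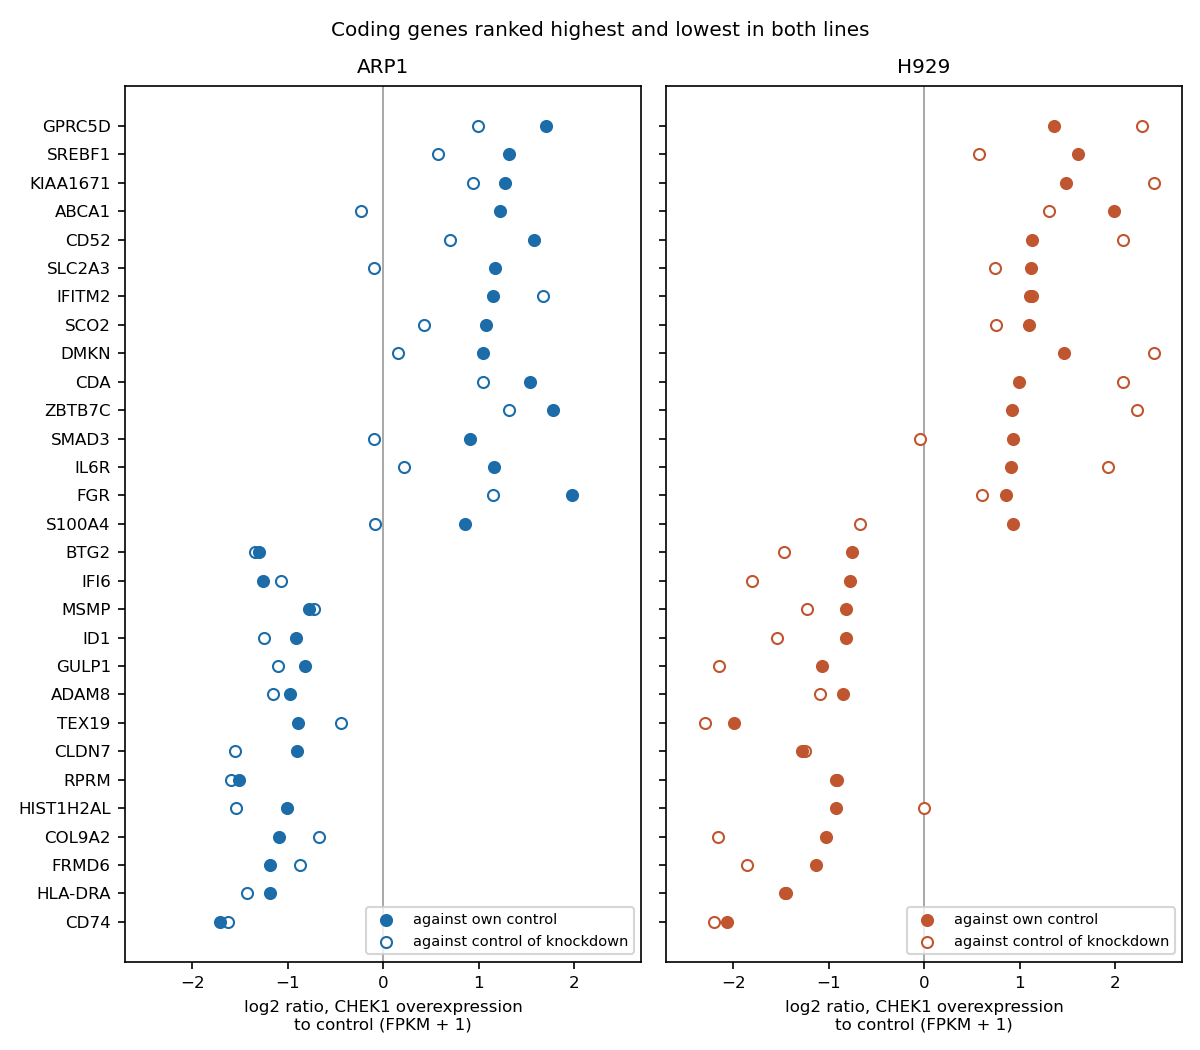
Log2 ratio of FPKM plus 1 for 15 higher and 14 lower genes ranked first, in ARP1 (left) and H929 (right), 1 library against 1 library per point, with filled circles for the line's own control and open circles for the control of knockdown. The filled circles of a direction lie on 1 side of 0 by the rule that ranked them; the open circles of SMAD3 and S100A4 lie below 0 in both lines, and those of the lower genes lie below 0 except HIST1H2AL in H929, which is at 0.

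Since each line had a second control, the overexpression libraries were also set against the control of knockdown; these comparisons share the overexpression libraries. Of the 47 genes higher in both lines, 29 kept the direction in both lines and 12 stood at 1.5-fold or more in both, among them GPRC5D, FGR, SCD, CD52, CDA, IFITM2, KIAA1671 and ZBTB7C. Of the 46 lower genes, 37 kept the direction and 23 stood at 1.5-fold or more, among them CD74, HLA-DRA, FRMD6, ADAM8, ID1, IFI6, BTG2, CLDN7 and COL9A2. The same measure applied between the controls, with no CHEK1 overexpression on either side, gave 87 genes higher and 164 lower in both lines with the control of overexpression, more than the 47 and 46 of the comparison itself. Against the other control, overexpression gave 120 higher and 269 lower genes. The libraries labelled CHEK1 knockdown held CHEK1 at 51.6 FPKM in ARP1, beside 61.0 FPKM in their control, and at 84.8 FPKM in H929, beside 80.7 FPKM, so the target was not lower in H929. Against their own controls these libraries gave 86 higher and 51 lower genes. Of the 47 genes higher in both lines with overexpression, 15 (31.9%) were also higher in both lines in the libraries labelled knockdown and 13 (27.7%) were lower, against 25.7% and 32.4% of all 10353 genes. Of the 46 lower genes, 10 (21.7%) were higher and 12 (26.1%) lower in them. CD74 went from 46.4 to 31.2 FPKM in ARP1 and from 12.7 to 10.7 FPKM in H929 in the libraries labelled knockdown, and SREBF1 from 38.6 to 85.6 FPKM and from 61.9 to 80.1 FPKM. Both genes thus lay on the same side of the control as with overexpression, with CHEK1 itself not lower in the H929 library.

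Several further lists were described in the same way. Over all coding genes tested, 49.5% were positive and 50.5% negative, with 30% higher and 30.4% lower in both lines. APOBEC3 cytidine deaminases, which edit single-stranded DNA, were positive in 6 of 6 tested genes and higher in both lines, with the highest median of the 29 lists at 0.65. APOBEC3C stood at 36.5 and 61.4 FPKM in ARP1 and at 45.7 and 64.8 FPKM in H929, APOBEC3D at 4.57 and 9.36 FPKM and at 6.49 and 9.84 FPKM, and APOBEC3F at 2.42 and 4.95 FPKM and at 3.47 and 5.05 FPKM. APOBEC3B, the most abundant member in H929, was nearest to 0 at 0.17 ± 0.27. APOBEC3H was highest at 1.23 ± 0.43, on levels under 4 FPKM, and APOBEC3G was read in ARP1 alone, at 1.72 and 4.84 FPKM. Against the controls of knockdown the list's median was -0.11 in ARP1 and 0.018 in H929, so the list's side of 0 in ARP1 depended on the control used. These genes are near copies of one another on chromosome 22, and reads may be split between them. Heat shock chaperones were positive in 16 of 19 cases with a median of 0.13, led by CHORDC1 at 0.56 ± 0.15, HSP90AA1 at 0.44 ± 0.25, HSPH1 at 0.39 ± 0.31 and DNAJA1 at 0.31 ± 0.32, and against the controls of knockdown the medians were higher, at 0.36 and 0.37. The BCL2 family was lower, with 9 of 13 members negative, the same 9 lower in both lines, and a median of -0.21. BMF, a pro-death BH3-only protein, stood at 37.6 and 21.6 FPKM and at 10.5 and 6.79 FPKM. BCL2L11, or BIM, BCL2L1, the pro-survival BCL-XL, and BAX had log2 fold changes of -0.49, -0.43 and -0.38, so members of both kinds lay on the lower side. Of B cell genes 8 of 20 were tested and 6 of these were negative: BCL6, CD79A, BLNK and VPREB3 stood under 4 FPKM in all 4 libraries, and BACH2, at 31.6 and 19.7 FPKM in ARP1, was at 20.4 and 21.1 FPKM in H929. PAX5 and POU2AF1 were the members with positive values, 0.18 ± 0.34 and 0.23 ± 0.16, and SPIB had -0.45 ± 0.30.

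Cytosolic ribosomal protein genes were negative in 33 of 41 cases and lower in both lines in 24, against 50.5% and 30.4% over all coding genes tested. The differences were small, with a median of -0.062 and RPL13A lowest at -0.28 ± 0.12. RPL37A and RPS9 had -0.23 and -0.20, and RPL37A turned positive against the other control. The list's fitted median turned too, to 0.027, with 0.040 in ARP1 and -0.0058 in H929. Among integrins and adhesion molecules 12 of 17 were positive, but against the other control the median was -0.057 in ARP1 and 0.070 in H929. CD58, the ligand of CD2, stood at 10.3 and 13.5 FPKM in ARP1 and at 13.3 and 24.7 FPKM in H929, and ICAM2 at 18.5 and 25.5 FPKM and at 16.5 and 24.9 FPKM. The ARP1 control of knockdown held CD58 at 15.7 FPKM, above the overexpression library, so its ARP1 direction rests on the control. NCAM1, or CD56, a surface marker of many myelomas, lay the other way, at 2.48 and 0.415 FPKM and at 15.9 and 10.9 FPKM. ITGAL, a leukocyte integrin chain, was at 0.34 ± 0.38. Of genes at the recurrent myeloma translocations and the D cyclins, CCND2 was highest, at 473 and 647 FPKM in ARP1 and at 166 and 185 FPKM in H929. CCND1, CCND3 and NSD2 had log2 fold changes of 0.25 ± 0.22, 0.26 ± 0.22 and 0.096 ± 0.12, and MAF had -0.26 ± 0.16. Medians of the remaining lists lay between -0.13, for plasma cell genes, and 0.091, for ATF4 targets.

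**Figure D4:**
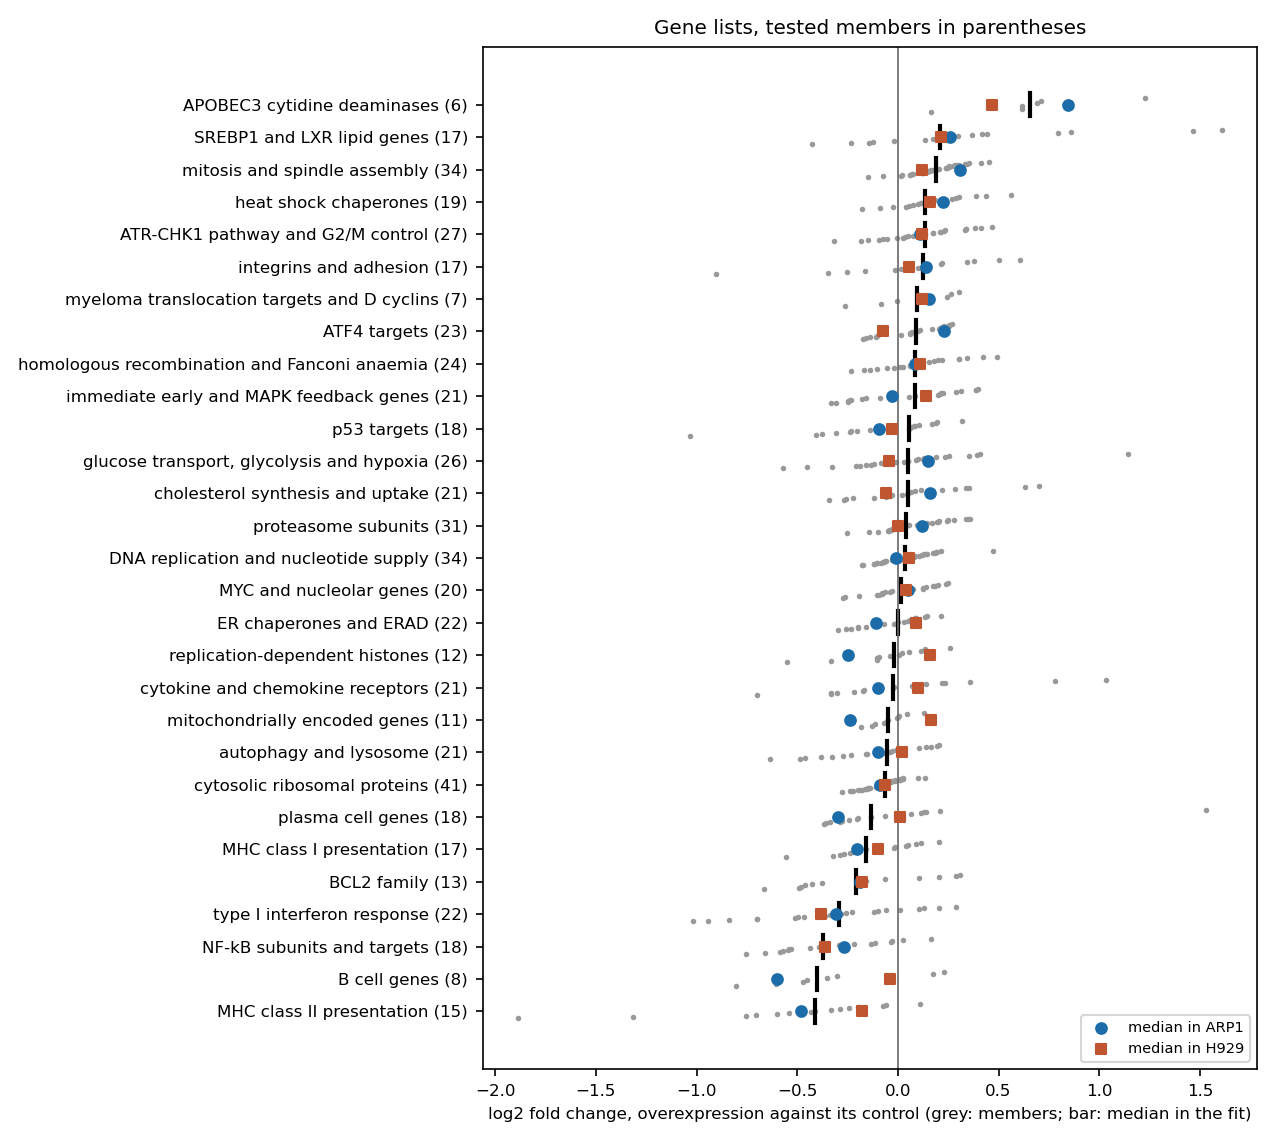
Log2 fold change of overexpression against its control for the tested members of 29 gene lists (grey points), with the median in the fit (black bar) and the medians of the log2 ratios in ARP1 (circles) and H929 (squares); the number tested is in parentheses. MHC class II, B cell, NF-kB and interferon lists lie at the low end with medians of -0.41, -0.40, -0.37 and -0.29, and the APOBEC3 list at the high end with 0.65. The B cell list's median was -0.60 in ARP1 but -0.041 in H929.

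Some genes stood apart in 1 line and near 0 in the other, defined as a log2 ratio under 0.1 in size. In ARP1, PTN, the growth factor pleiotrophin, went from 1.498 to 8.0 FPKM, against 17.1 and 17.5 FPKM in H929. SERPINE2, a protease inhibitor, went from 0.784 to 3.17 FPKM in ARP1, and HRH2, a histamine receptor, from 3.63 to 8.98 FPKM. H929 held HRH2 at only 0.148 and 0.147 FPKM, so HRH2 could be read in ARP1 alone. The ARP1 control of knockdown held SERPINE2 at 4.32 FPKM, above the overexpression library, so its direction rests on the control. SLC36A4, an amino acid transporter, went from 13.7 to 30.4 FPKM there, against 22.6 and 21.9 FPKM in H929. On the lower side in ARP1, RASSF4 went from 8.51 to 1.74 FPKM and RUBCNL from 10.3 to 2.36 FPKM, both listed at 0 in both H929 libraries of the comparison, so these could be read in 1 line only. SPINK2 went from 15.1 to 4.98 FPKM and MATN2 from 6.31 to 1.68 FPKM. In H929, UNC13C went from 14.6 to 27.1 FPKM, against 31.5 and 30.5 FPKM in ARP1, WDFY3 from 4.32 to 8.85 FPKM, FAAP24, a Fanconi anaemia core protein, from 2.17 to 4.92 FPKM, and IGF2BP2 from 1.14 to 3.24 FPKM. WDFY3 stood at 10.96 FPKM in the other H929 control, above the overexpression library, so its direction also rests on the control. IFI27 went from 6.77 to 1.41 FPKM, beside 74.1 FPKM in the other H929 control, so the H929 controls differed by more than the genotypes. ZBTB49, LHB and ANKRD37 went from 4.03 to 1.17, from 3.79 to 1.36 and from 6.03 to 2.56 FPKM. Whether the lines differed was not tested, since each line had no replicate.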

How the data were processed

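RNA of the 8 libraries was sequenced as poly(A)-selected paired ends. The authors deposited FPKM per transcript in 1 table whose header calls the columns means, without saying of what. Per the submitters' processing notes the tools were Bowtie 0.12.2, HISAT2 2.0 and StringTie 1.3.0. Those notes name a mouse build, which cannot belong to human transcript identifiers, and no source used here gives the human build. Read depth is unknown, so no counting error is given, and precision rests on the spread between libraries.

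Of 88209 transcripts 87707 matched GENCODE release 29 (GRCh38). FPKM was summed per gene over transcripts of at least 300 nt. Genes at 1 FPKM or more in at least 2 libraries, 14702 in number, were fitted as log2(FPKM + 1) in limma 3.58.1 (R 4.3.3) on all 8 libraries, with genotype, cell line as a block and a variance trend (3 residual and 4.42 prior degrees of freedom). Tests were two-sided, with Benjamini-Hochberg adjustment over all genes and a threshold of 0.05. The pseudocount of 1 understates differences of low genes. Pairing comes from the cell line in the labels. Nothing says whether the libraries came from separate cultures, so p-values measure the spread between these samples only. The fit was tested on simulated data.

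Members and lists were chosen with earlier results of these data known. The text names CHEK1, the 15 coding genes ranked first in each direction by the smaller of both lines' log2 ratios, 4 per line and direction with the other line under 0.1, 4 in each opposite sense, and up to 4 members per list by the same ranking. Some genes that these rules took are not reported here. Other genes were named for their role or after their values were seen. Promoters came from RefSeq, and the motif letters from known elements of these gene classes, so their shares on the lists do not bear on overexpression. Alternatives were a pseudocount of 0.1, other filters, scalings and variance settings, no block, the 4 libraries alone, pooled or exchanged controls, all matched transcripts, coding genes alone, and each library left out.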

Additional observations from a re-analysis of the deposited data

Results flagged for a closer look

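Genes and lists are given here because the lines moved in opposite directions. The number for each is the log2 ratio in ARP1 minus that in H929; with 1 library per line and genotype, none of these differences was tested. AK1, adenylate kinase, stood at 1.57 and 3.24 FPKM in ARP1 and at 2.48 and 1.23 FPKM in H929, a difference of 1.36. BEX5 (1.54) and NXPH4 (1.63) were likewise higher in ARP1 and lower in H929, all under 10 FPKM. FOS, the immediate early transcription factor, went from 19.7 to 12.02 FPKM in ARP1 and from 20.8 to 46.3 FPKM in H929, a difference of -1.78, while the controls of knockdown held 39.4 and 57.1 FPKM. GCDH, glutaryl-CoA dehydrogenase, gave -1.60, KRT18, a keratin, -2.74, and SASH3, a lymphocyte adaptor, -2.81. In ARP1, SASH3 was high in the control of overexpression, at 10.03 FPKM, and not in that of knockdown, at 1.49 FPKM, beside 1.70 FPKM with overexpression. CKS1B, a cyclin-dependent kinase subunit, gave 0.25, and FGFR3, at 1.18 FPKM or less in the 4 libraries, 0.48. The median of the replication-dependent histone list was -0.25 in ARP1 and 0.16 in H929, a difference of -0.41. Mitochondrially encoded genes had medians of -0.24 and 0.17, a difference of -0.41, and the mitochondrial share of summed FPKM was lower with overexpression in ARP1, 3.53% beside 4.0%, and higher in H929, 4.74% beside 4.38%.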

How the results depend on the processing

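The comparison has 2 lines and no read counts, so it can only describe differences of moderate size; short and overlapping genes and low levels are the least certain. Limma called 0 genes under each alternative except with all matched transcripts, where it called 1, a short RNA. Pairing by line did not decide this count, since with no replicate block limma also called 0. That CHEK1 stayed at 0.47 there cannot test the pairing. With the genotypes balanced over the lines, the block leaves a fold change unaltered. The shared counts have no leave-one-out value, since a line then has no pair. Shared higher genes numbered 10 at 2-fold, 31 at a mean of at least 5 FPKM and 120 against the other control; shared lower genes numbered 5, 29 and 269, and 89 with a pseudocount of 0.1. Alternatives were run for CHEK1 and the genes taken by ranking. Of these, the genes whose sign reversed against the other control were S100A4 (-0.38), SMAD3 (-0.067), APOBEC3B (-0.17), APOBEC3C (-0.080), APOBEC3G (-0.15), BACH2 (0.14), POU2AF1 (-0.14), SPIB (0.037), RPL37A (0.14), ITGAL (-0.70), BIRC5 (-0.041) and CCND3 (-0.12). With both controls pooled, APOBEC3B (-0.000438) and ITGAL (-0.18) reversed. Among genes named for other reasons, ISG20, BUB3 and RELA, lower in the comparison, had positive log2 ratios to the other control in both lines. With libraries left out in turn, APOBEC3B ranged from -0.035 to 0.37, BACH2 from -0.66 to 0.056, PAX5 from -0.16 to 0.52, ITGAL from -0.14 to 0.83, CKS1B from -0.12 to 0.10 and FGFR3 from -0.37 to 0.20. The cause was not tested.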

Other observations

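Genes at 1.5-fold or more in both lines that the ranking left out included further surface and signalling genes; they were named after their values were seen. On the higher side TRIB2, a pseudokinase, stood at 57.0 and 147 FPKM in ARP1 and at 140 and 244 FPKM in H929, and S100A6, the neighbour of S100A4 in the S100 cluster, at 80.3 and 191 FPKM and at 107 and 176 FPKM. MYO1E, a class I myosin, stood at 17.4 and 45.3 FPKM and at 32.4 and 58.9 FPKM, though the ARP1 control of knockdown held 47.5 FPKM. VDR, the vitamin D receptor, stood at 15.4 and 28.5 FPKM and at 10.7 and 17.9 FPKM, above both controls of knockdown at 18.2 and 7.68 FPKM. LILRB4, an inhibitory immunoglobulin-like receptor, stood at 28.9 and 49.5 FPKM and at 23.3 and 40.8 FPKM. TLR4, the endotoxin receptor, and S1PR1, a receptor for sphingosine 1-phosphate, had log2 fold changes of 0.68 and 0.91.

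On the lower side RARRES3, a retinoid-responsive phospholipase, was the most abundant, at 252 and 129 FPKM in ARP1 and at 146 and 90.7 FPKM in H929, though the controls of knockdown held 144 and 84.7 FPKM. ID3, a relative of ID1, stood at 87.8 and 37.6 FPKM and at 45.3 and 26.8 FPKM. DNPH1, a nucleotide hydrolase, stood at 112 and 72.0 FPKM and at 85.4 and 54.9 FPKM, and PSENEN, a subunit of gamma-secretase, at 68.3 and 44.8 FPKM and at 33.5 and 18.6 FPKM, both below either control of the line in ARP1 and in H929. MT2A, a metallothionein, stood at 44.7 and 26.3 FPKM and at 14.3 and 9.13 FPKM, though the H929 control of knockdown held 6.93 FPKM. None of these genes passed an adjusted p of 0.05 by limma.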
